A study of Mus musculus with 12 samples.

Results

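Cilium genes formed a set of 59 among the 17365 genes of the count table, chosen by symbol alone: intraflagellar transport (Ift) and Bardet-Biedl (Bbs) genes with Ttc8, Arl3, Arl6, Arl13b, Tulp3 and the IFT dynein genes Dync2h1 and Dync2li1, the transcription factors Foxj1 and Rfx2 to Rfx4, and the motile axoneme genes of the Dnah, Dnaic, Rsph, Spag and Tekt series with Ccdc39, Ccdc40 and Hydin. The rule used no expression value. They were measured by bulk RNA-seq in 12 libraries of adherent mouse neural stem cells (NSCs), grown from the subventricular zone of young adults of 6 to 8 weeks and used below passage 10. EGF/FGF libraries came from proliferating NSCs kept in EGF and FGF2, BMP libraries from cells given BMP4 without EGF or FGF2 (dormant d-qNSCs), and BMP/FGF libraries from cells given BMP4 with FGF2 (primed p-qNSCs), each factor at 10 ng/ml and both quiescence treatments for 3 days. Every state held 4 libraries, 2 of the ANS4 line (strain MF1) and 2 of the BL6 line (strain C57BL/6). Each line is a separate derivation from 1 strain, so line and strain cannot be told apart, and nothing in the sources says that replicates came from separate animals.

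A cilium is a microtubule axoneme that grows from a centriole docked at the plasma membrane. Most mammalian cells, NSCs included, can carry an immotile primary cilium, which gathers Hedgehog pathway proteins and other receptors and is taken down before mitosis, whereas ependymal cells along the ventricle carry tufts of motile cilia that move cerebrospinal fluid. IFT-B trains driven by kinesin carry cargo to the tip, IFT-A trains driven by the IFT dynein return it, and the BBSome is a coat that moves membrane proteins with those trains. Motile cilia add dynein arms, radial spokes and a central pair of microtubules to the axoneme, and Foxj1 and the Rfx factors are the known regulators of the genes that encode them.

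Levels are given as CPM, counts for every 1000000 counts of a library scaled by edgeR's TMM factor. The 4 values of a state follow the order ANS4 replicates 1 and 2, then BL6 replicates 1 and 2. Library totals ran from 18069052 to 19451818 counts, so that 1 count equalled 0.0515 to 0.0557 CPM, and 13641 genes, among them 54 of the 59, passed edgeR's filter on low counts. Replicates of the same line and state differed beyond sampling noise in all 6 pairs, most in the BL6 BMP pair (chi-square per degree of freedom 12, against 2.11 to 4.61 in the others). Summed CPM of 11 neural stem cell markers (Sox2, Nes, Pax6 and others) was 4993 to 5495 under EGF/FGF. It was 5378 to 6792 under BMP and 7524 to 7848 under BMP/FGF. Of the 11, 8 rose and 3 fell in BMP, while 7 rose and 3 fell in BMP/FGF, with the largest falls for Fabp7 in BMP (−2.40, adjusted p = 3.93e-11) and Nes in BMP/FGF (−2.31, adjusted p = 2.11e-14). Summed CPM of 10 proliferation markers (Mki67, Top2a and others) was 2910 to 3467 under EGF/FGF, 485 to 702 under BMP and 335 to 354 under BMP/FGF. The 59 cilium genes took 0.140 to 0.144% of a library's counts under EGF/FGF, 0.203 to 0.209% under BMP and 0.193 to 0.198% under BMP/FGF. In bulk RNA, fewer cells of a type and less RNA per cell cannot be told apart.

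Most cilium genes were higher in both quiescent states than in proliferating NSCs. In BMP against EGF/FGF, 39 of the 54 tested genes were higher at an adjusted p under 0.05, beside 40.2% of all 13641 genes, and 8 were lower, beside 38.8%. Past a log2 fold change of 1.5, 17 were higher (11.3% of all genes) and 0 lower (7.21%), a 0 that stood at an unadjusted p under 0.05 too. In BMP/FGF against EGF/FGF, 39 were higher (40% of all genes) and 7 lower (38.1%), with 15 past the same threshold upward (11%) and 1 downward (6.39%). The median log2 fold change over the 54 was 0.99 in BMP and 0.83 in BMP/FGF, against 0.018 and 0.013 over all genes. Both comparisons share the EGF/FGF libraries. Between the quiescent states fewer genes were called: in BMP/FGF against BMP, 6 were higher (19.2% of all genes) and 12 lower (21.5%). By the same test, 0 rose past 1.5 (0.968%, also 0 at an unadjusted p under 0.05) and 1 fell past it (0.938%), and the median was −0.055 against −0.0099 over all genes. All BMP libraries were above all EGF/FGF libraries for 35 of the 54, beside 35.6% of all genes. The same held in BMP/FGF for 39, beside 38.1%. All BMP/FGF libraries were below all BMP libraries for 13, beside 18.4%.

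Low levels in proliferating NSCs bear on these counts. A group of 9 motile genes did not reach the filter's level of 0.535 CPM in 2 EGF/FGF libraries and passed the filter only with quiescent libraries counted: Dnah5, Dnah6, Dnah9, Dnah11, Dnah17, Rsph4a, Hydin, Spag6 and Spag16. Among the remaining 45 cilium genes, 31 rose in BMP and 8 fell, beside 37.8 and 41.3% of the 12772 genes so limited, and 32 rose in BMP/FGF and 7 fell, beside 37.7 and 40.7%. The medians of the 45 were 0.73 in BMP and 0.79 in BMP/FGF, against −0.042 and −0.044 over all genes so limited. Of all 869 genes that passed the filter only with quiescent libraries counted, 75.9% rose in BMP and 73.9% in BMP/FGF. The filter thus favours rises among the 9 motile genes, of which 8 rose in BMP and 7 in BMP/FGF. The counts past the fold change threshold include some of the 9 and were not limited in this way. A further 5 genes were not tested. Dnah8, Rsph14 and Spag17 had at most 3 counts in every library, Tekt2 at most 4, and Dnah10 lay between 0.104 and 0.502 CPM.

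**Figure D1:**
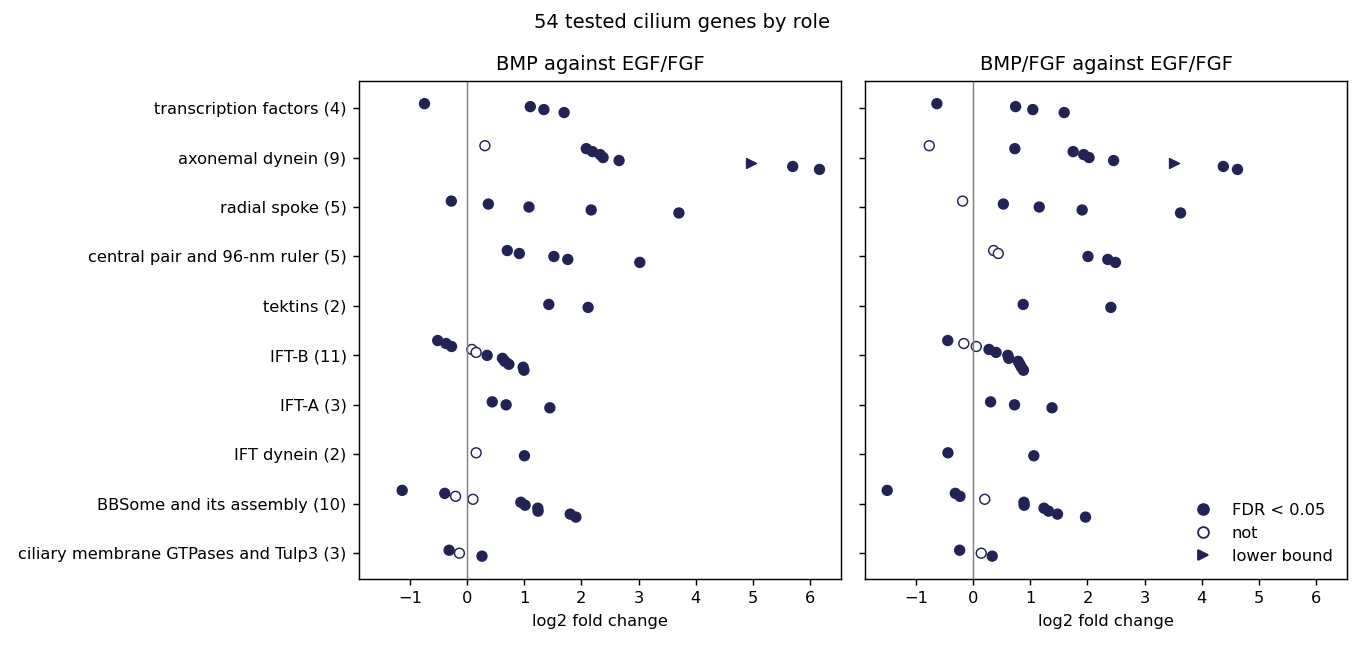
Log2 fold change (x axis) of each of the 54 tested cilium genes, by role (y axis, number of genes in brackets), in BMP (left) and BMP/FGF (right) against EGF/FGF. Filled symbols passed an adjusted p of 0.05 and the arrowhead marks Dnah6 at its lower bound; most axonemal dynein genes lie beyond 1.5, and the IFT-B genes all lie between −0.51 and 1.00.

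**Figure D2:**
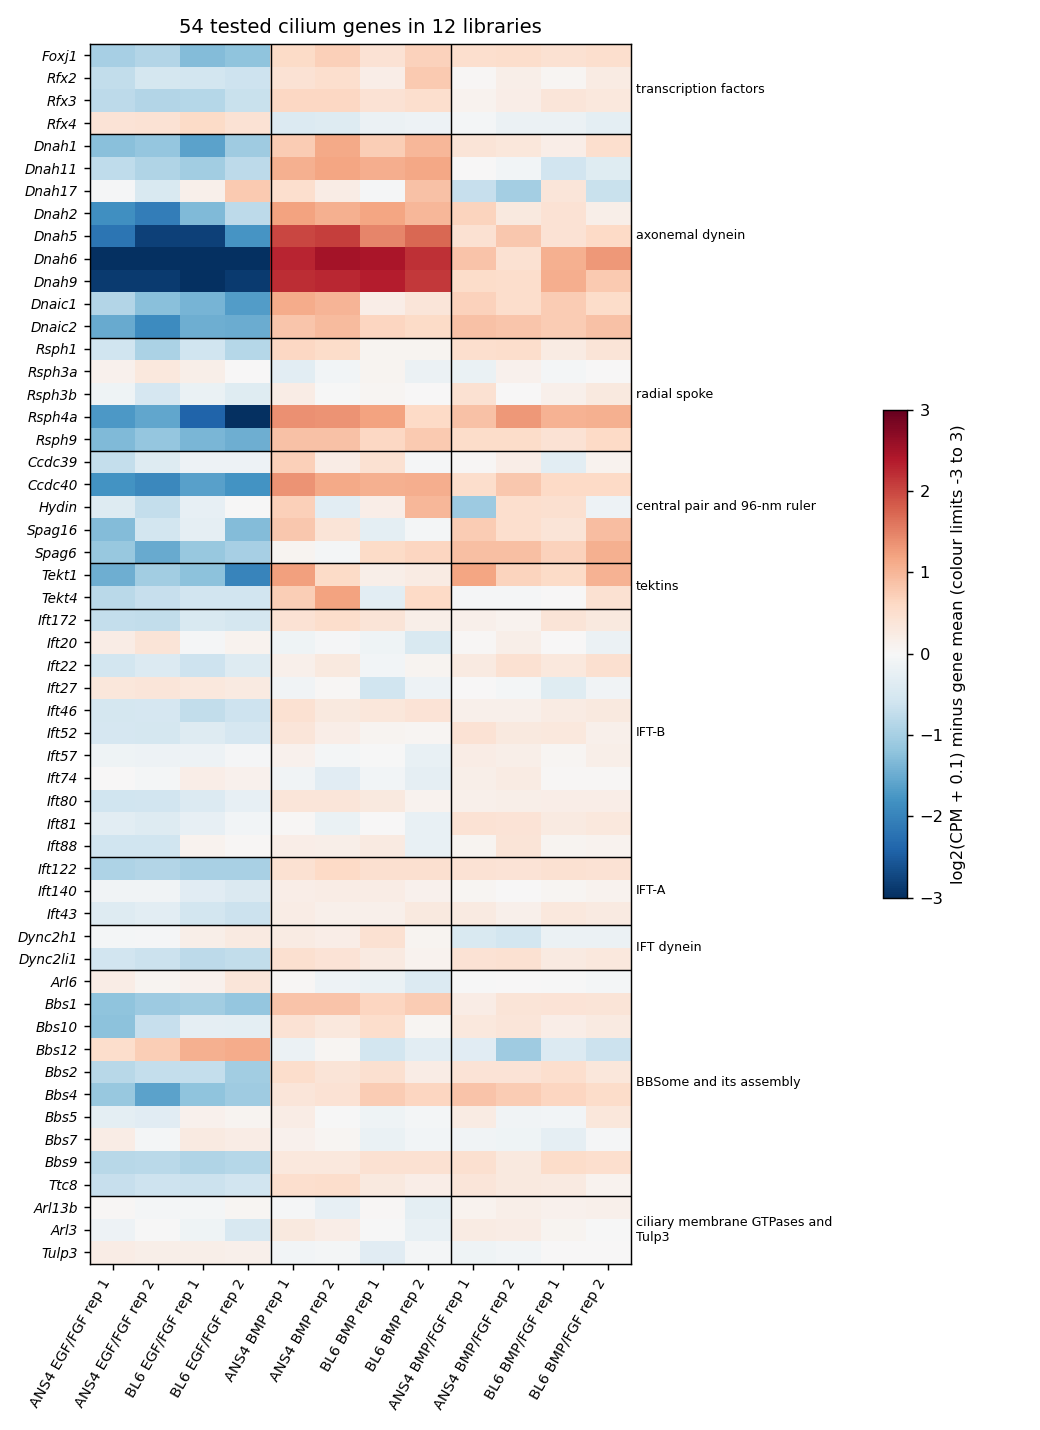
Level of the 54 tested cilium genes (rows, by role) in the 12 libraries (columns), as log2(CPM + 0.1) minus the mean of the gene over all libraries, with colours limited to −3 and 3. Most dynein, spoke and tektin rows, though not Dnah17 or Rsph3a, are blue in the 4 EGF/FGF libraries and red or pale red in the BMP libraries, whereas IFT and BBSome rows are paler and hold several rows of the opposite order, such as Bbs12 and Ift27.

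Of the transcription factors, Foxj1, Rfx2 and Rfx3 rose in quiescence and Rfx4 fell. Foxj1 (ENSMUSG00000034227, GRCm38 chr11:116330704-116335399, minus strand), the forkhead factor of motile ciliogenesis, had 63.7, 69.3, 52.0 and 54.8 CPM under EGF/FGF, 189, 208, 172 and 206 under BMP, and 181, 184, 175 and 181 under BMP/FGF. Every quiescent library was above every proliferating one, with a log2 fold change of 1.70 ± 0.076 (adjusted p = 6.6e-13) in BMP and 1.59 ± 0.076 (adjusted p = 1.55e-12) in BMP/FGF (± SE throughout, edgeR quasi-likelihood test). The quiescent states overlapped for Foxj1, with a log2 difference of −0.10 ± 0.072 (adjusted p = 0.269) between BMP/FGF and BMP. Rfx3 (ENSMUSG00000040929, chr19:27761721-28011166, minus strand), an Rfx factor that binds cilium gene promoters, was 88.1, 82.6, 84.3 and 95.0 CPM in EGF/FGF, 233, 234, 207 and 214 in BMP, and 162, 175, 196 and 189 in BMP/FGF. Its 3 states did not overlap: it rose by 1.34 ± 0.072 (adjusted p = 7.81e-12) in BMP and 1.04 ± 0.072 (adjusted p = 2.72e-10) in BMP/FGF, and was lower in BMP/FGF than in BMP by a log2 difference of −0.30 ± 0.070 (adjusted p = 0.0025). In BL6 alone the latter difference was −0.13 (adjusted p = 0.2).

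Rfx2, a close relative of Rfx3, had 11.8, 13.7, 13.4 and 12.8 CPM in EGF/FGF, 26.6, 27.8, 22.8 and 34.1 in BMP, and 20.1, 22.4, 20.7 and 23.3 in BMP/FGF. It rose by 1.11 ± 0.11 (adjusted p = 2.9e-08) and 0.74 ± 0.11 (adjusted p = 6.13e-06) in the respective states. It was lower in BMP/FGF than in BMP (−0.36 ± 0.10, adjusted p = 0.0094), a call that depended on the highest library, BL6 BMP replicate 2: without it the difference was −0.23 (adjusted p = 0.0505). In BL6 alone the difference was −0.37 (adjusted p = 0.0753). Rfx4, an Rfx factor of the neural tube that is expressed in neural progenitors, went the other way, from 247, 252, 276 and 253 CPM in EGF/FGF to 140.0, 142, 165 and 167 in BMP, and 179, 165, 165 and 152 in BMP/FGF. All quiescent libraries were below all proliferating ones (−0.74 ± 0.070, adjusted p = 2e-08 in BMP and −0.63 ± 0.070, adjusted p = 1.84e-07 in BMP/FGF), and the quiescent states overlapped (0.11 ± 0.070, adjusted p = 0.222 between them).

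**Figure D3:**
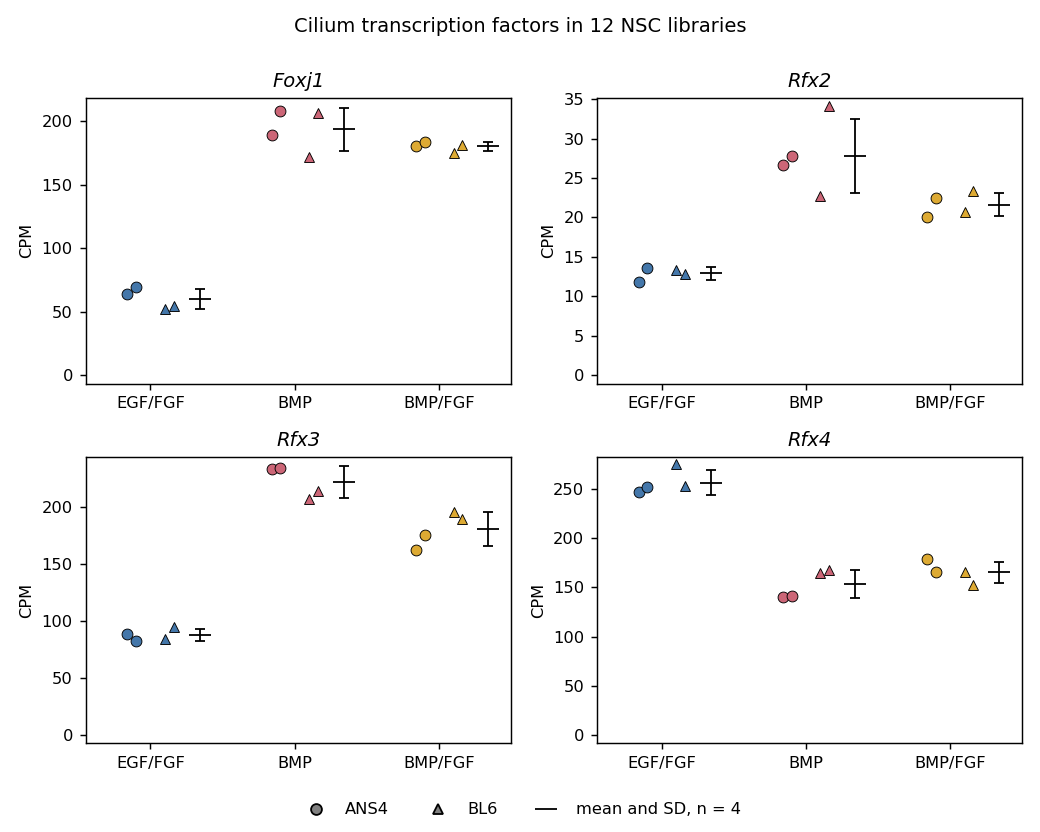
CPM (y axis) of Foxj1, Rfx2, Rfx3 and Rfx4 in the 12 libraries by state (x axis), circles for ANS4 and triangles for BL6, with the mean and SD of the 4 libraries of a state beside them. Foxj1, Rfx2 and Rfx3 are higher in both quiescent states than in EGF/FGF and Rfx4 is lower; within BMP, both ANS4 libraries are above both BL6 libraries for Rfx3.

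Since Rfx factors bind a motif known as the X-box, whose core reads GTTGCC, the promoters of the cilium genes were read for it. RefSeq promoter windows on GRCm38.p6, from 250 bases before to 50 bases after a transcription start, were found for 52 of the 59. GTTGCC on either strand was present for 21 of the 52 genes (40.4%) and for 2018 of all 13631 genes of the count table with a window (14.8%). An X-box of 2 facing, partly degenerate cores up to 3 bases apart was present for 8 of 52 (Bbs1, Dnaic1, Dnaic2, Hydin, Ift57, Rsph3b, Spag16 and Tekt2; 15.4%) and for 1.95% of all, and an exact GTTGCC facing an exact GGCAAC at that spacing for 0 of 52 and 0.227% of all. The forkhead core TAAACA was present for 8 of 52 genes (15.4%), beside 11.1% of all, and GTAAACA, which contains it, for 1 (1.92%), beside 3.22%. These are matches of letters, not measured binding. The windows below show the core in capitals, as GTTGCC or as its reverse complement GGCAAC, with up to 12 bases on each side, read 5′ to 3′ on the strand of the gene. They were picked to set genes that rose beside genes that fell or showed no call.
Dnaic2 (chr11:114727381-114727410, plus strand): ccagggttgctaGGCAACtggtaaactccg
Tekt1 (chr11:72361880-72361909, minus strand): tgcgtccgtccgGTTGCCatagagaccgca
Spag6 (chr2:18698973-18699002, plus strand): cgattccgactgGTTGCCcaggagtgtggg
Rfx2 (chr17:56831107-56831136, minus strand): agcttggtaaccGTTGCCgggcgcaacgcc
Bbs1 (chr19:4906609-4906638, minus strand): atggctgagctgGTTGCCaaggcgacgcct
Ift172 (chr5:31291097-31291126, minus strand): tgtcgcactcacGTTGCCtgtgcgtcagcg
Ift27 (chr15:78174073-78174102, minus strand): gggttgatgatgGTTGCCaggagcctgttt
Bbs7 (chr3:36613493-36613522, minus strand): gaatgcgccccgGTTGCCttggaaaccggc
Arl13b (chr16:62847204-62847233, minus strand): acagacgctccaGTTGCCtagttaccagag
The first 6 of these genes rose in both quiescent states, Ift27 fell in both, Bbs7 fell in BMP/FGF, and Arl13b showed no call against EGF/FGF. Of the 19 tested genes with the core, 13 rose in BMP and 1 fell, and of the 28 tested genes with a window and no core, 20 rose and 7 fell. The core of Dnaic2 began 26 bases before the RefSeq start, that of Spag6 37, that of Rfx2 116 and that of Ift27 9. Tekt1 held 2 cores, 15 and 35 bases before it, the first of them shown.

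Axonemal dynein genes held the 3 largest rises of the set in BMP. The 9 tested genes of this role had median log2 fold changes of 2.38 in BMP and 2.03 in BMP/FGF. Of the 9, 8 were higher in BMP and 8 in BMP/FGF, beside 40.2 and 40% of all genes. Of the 9, 5 passed the filter on low counts only with quiescent libraries counted. The other 4 (Dnah1, Dnah2, Dnaic1 and Dnaic2) were higher in both states, with medians of 2.35 and 1.98. The heavy chains Dnah5 and Dnah9 belong to the outer dynein arms and Dnah6 to the inner arms, which slide the microtubule doublets. Dnah6 (ENSMUSG00000052861, chr6:73017606-73221651, minus strand) had 0 counts in all 4 EGF/FGF libraries. Its counts were 84, 97, 101 and 83 under BMP, and 31, 23, 35 and 41 under BMP/FGF, where levels averaged 4.89 ± 0.497 and 1.78 ± 0.445 CPM (SD, n = 4). Against 3 counts per EGF/FGF library, the floor used here, Dnah6 was at least 31.3-fold higher in BMP and at least 11.4-fold higher in BMP/FGF (adjusted p = 1.07e-10 and 1.26e-08).

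Dnah9 (ENSMUSG00000056752, chr11:65831282-66168551, minus strand) had counts of 2, 2, 1 and 2 under EGF/FGF. Its counts were 124, 128, 147 and 123 under BMP, and 39, 38, 55 and 44 under BMP/FGF. Over the summed counts it was higher by 76.7-fold (95% interval 37.0 to 192) in BMP and 26.4-fold (95% interval 12.5 to 66.6) in BMP/FGF, exact binomial intervals that cover counting error only (adjusted p = 2.5e-13 and 1.54e-10). Dnah5 (ENSMUSG00000022262, chr15:28203752-28472052, plus strand) had counts of 1, 0, 0 and 2 under EGF/FGF, 48, 51, 35 and 42 under BMP, and 16, 21, 15 and 17 under BMP/FGF. It was higher by 60.4-fold (95% interval 20.3 to 295) and 24.1-fold (95% interval 7.92 to 119.9) (adjusted p = 8e-10 and 3.57e-07). In each of these 3 genes the states followed the order EGF/FGF, BMP/FGF, BMP with no overlap between libraries.

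The remaining tested heavy chains, Dnah1, Dnah2, Dnah11 and Dnah17, had counts in every EGF/FGF library. Dnah11 and Dnah17 did not reach the filter's level in 2 of those libraries. Dnah2, an inner-arm heavy chain, had 0.626, 0.518, 0.940 and 1.40 CPM under EGF/FGF, 5.88, 5.33, 5.82 and 5.08 under BMP, and 4.03, 3.11, 3.39 and 2.84 under BMP/FGF, again without overlap. It rose by 2.66 ± 0.22 (adjusted p = 3.55e-09) in BMP and 1.94 ± 0.23 (adjusted p = 6.24e-07) in BMP/FGF. Dnah1, another inner-arm chain, rose by 2.33 ± 0.21 (adjusted p = 8.73e-09) and 1.75 ± 0.22 (adjusted p = 8.94e-07). Dnah11, an outer-arm chain, was 0.522, 0.466, 0.418 and 0.520 CPM in EGF/FGF, 2.11, 2.33, 2.16 and 2.28 in BMP, and 0.966, 0.910, 0.611 and 0.724 in BMP/FGF. The rise was 2.19 ± 0.22 (adjusted p = 6.1e-08) in BMP and 0.73 ± 0.26 (adjusted p = 0.0181) in BMP/FGF, and no library of 1 state overlapped those of another. Dnah17 had no call in either state (0.31 ± 0.40, adjusted p = 0.486 in BMP, −0.76 ± 0.47, adjusted p = 0.147 in BMP/FGF) and overlapping libraries.

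The intermediate chains of the outer arm rose in both quiescent states. Dnaic2 (ENSMUSG00000034706, chr11:114727408-114757889, plus strand) had 2.24, 1.71, 2.30 and 2.29 CPM in EGF/FGF, 11.8, 12.7, 10.4 and 9.75 in BMP, and 12.1, 11.7, 11.2 and 12 in BMP/FGF. It rose by 2.38 ± 0.13 (adjusted p = 7.54e-12) and 2.46 ± 0.13 (adjusted p = 4.85e-12). Dnaic1, its partner, rose by 2.09 ± 0.21 (adjusted p = 6.2e-08) and 2.03 ± 0.22 (adjusted p = 1.09e-07). Between BMP/FGF and BMP the differences were 0.078 ± 0.10 (adjusted p = 0.574) for Dnaic2 and −0.058 ± 0.17 (adjusted p = 0.82) for Dnaic1, with overlapping libraries for both.

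**Figure D4:**
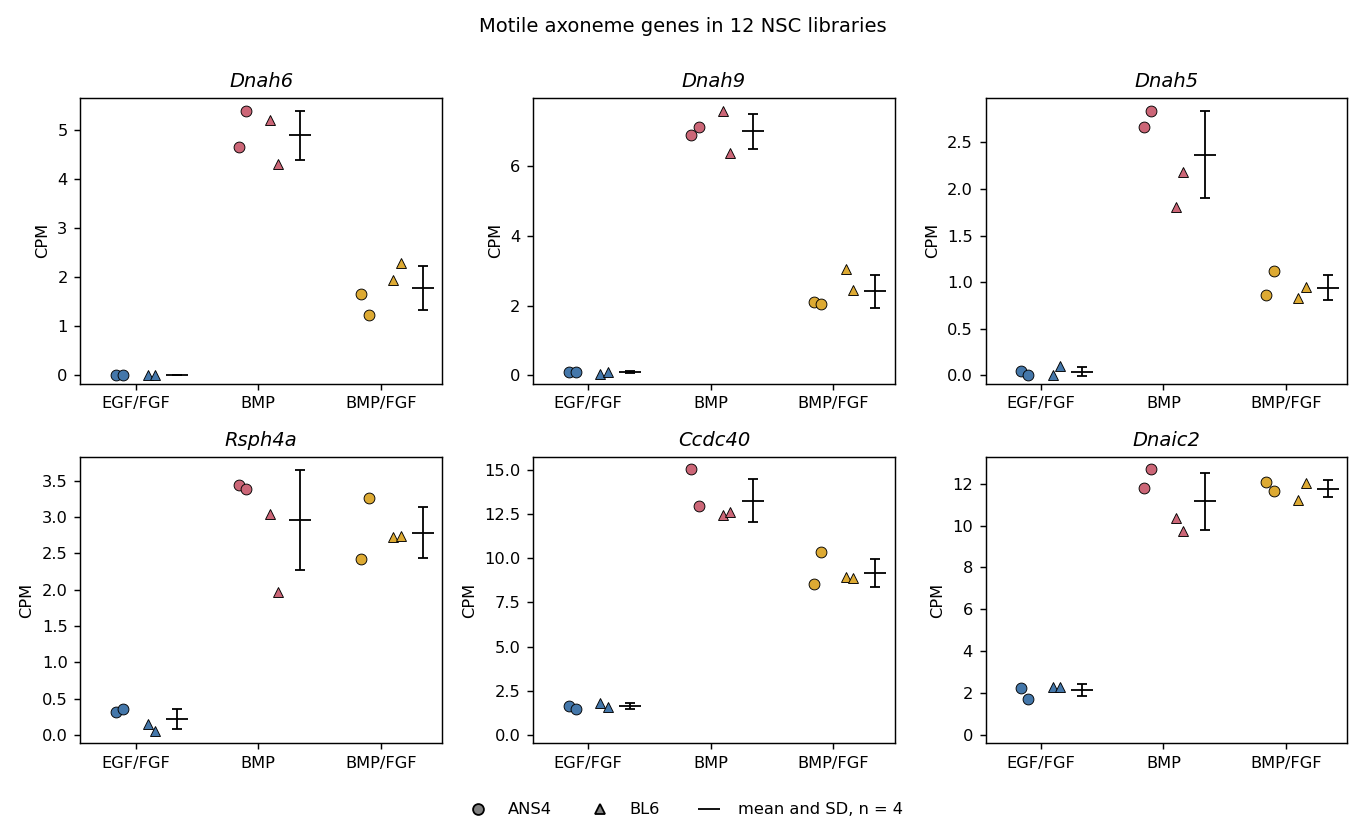
CPM (y axis, own scale per gene) of Dnah6, Dnah9, Dnah5, Rsph4a, Ccdc40 and Dnaic2 by state (x axis), circles for ANS4 and triangles for BL6, with the mean and SD of 4 libraries. All BMP and BMP/FGF libraries are above the EGF/FGF ones; Dnah6, Dnah9, Dnah5 and Ccdc40 have BMP/FGF libraries below all BMP libraries, while Rsph4a and Dnaic2 overlap.

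Radial spokes carry signals from the central pair to the dynein arms. Rsph4a, a spoke head protein, had 0.313, 0.362, 0.157 and 0.0520 CPM under EGF/FGF, 3.44, 3.39, 3.04 and 1.97 under BMP, and 2.42, 3.27, 2.72 and 2.73 under BMP/FGF. All quiescent libraries were above the proliferating ones, by 3.70 ± 0.31 (adjusted p = 3.75e-09) and 3.63 ± 0.31 (adjusted p = 6.22e-09). The spoke head genes Rsph9 and Rsph1 rose as well, Rsph9 from 2.20 ± 0.212 to 9.92 ± 0.829 and 8.26 ± 0.375 CPM (SD, n = 4) and Rsph1 from 9.97 ± 1.23 to 21.4 ± 4.45 and 22.3 ± 1.90. Rsph3a and Rsph3b are near-identical copies, so estimated counts can be split between them. Rsph3b was higher (0.37 ± 0.10, adjusted p = 0.0028 in BMP, 0.53 ± 0.10, adjusted p = 0.000122 in BMP/FGF) and Rsph3a lower in BMP (−0.27 ± 0.093, adjusted p = 0.0122), and these opposite values are uncertain for that reason.

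Ccdc39 and Ccdc40 form the ruler that sets the repeat of arms along the axoneme. Ccdc40 (ENSMUSG00000039963, chr11:119228572-119265238, plus strand) rose from 1.62, 1.45, 1.83 and 1.61 CPM in EGF/FGF to 15.0, 12.9, 12.5 and 12.6 in BMP, and 8.54, 10.3, 8.94 and 8.86 in BMP/FGF. Its log2 fold changes were 3.02 ± 0.13 (adjusted p = 2.65e-13) and 2.49 ± 0.13 (adjusted p = 6.16e-12). Ccdc39 was 6.76 ± 1.16 CPM in EGF/FGF, 11.1 ± 2.43 in BMP and 8.70 ± 1.29 in BMP/FGF (SD, n = 4), higher in BMP (0.70 ± 0.16, adjusted p = 0.000664) and without a call in BMP/FGF (0.36 ± 0.17, adjusted p = 0.055).

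Of the central pair genes, Spag6 had 0.365, 0.259, 0.366 and 0.416 CPM in EGF/FGF, 0.999, 0.888, 1.44 and 1.5 in BMP, and 1.83, 1.82, 1.55 and 2.06 in BMP/FGF. Every BMP library was above the EGF/FGF ones and every BMP/FGF library above the BMP ones (1.76 ± 0.28, adjusted p = 1.52e-05 in BMP, 2.36 ± 0.26, adjusted p = 2.09e-07 in BMP/FGF). Spag16 rose by 1.52 ± 0.53 (adjusted p = 0.0144) and 2.01 ± 0.50 (adjusted p = 0.00129) from at most 4 counts in an EGF/FGF library, and Hydin had a call in BMP alone (0.91 ± 0.39, adjusted p = 0.0418, against 0.44 ± 0.42, adjusted p = 0.343 in BMP/FGF) with overlapping libraries. The tektins line the inside of the doublets. Tekt1 had 0.782, 1.09, 0.940 and 0.520 CPM in EGF/FGF, 5.66, 3.55, 2.68 and 2.80 in BMP, and 5.42, 3.80, 3.55 and 4.90 in BMP/FGF, a rise of 2.12 ± 0.25 (adjusted p = 5.33e-07) and 2.41 ± 0.25 (adjusted p = 7.87e-08). Tekt4 rose by 1.43 ± 0.31 (adjusted p = 0.000406) and 0.88 ± 0.33 (adjusted p = 0.0226).

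Other motile cilium genes, which the rule on symbols did not take, rose as well. Of 28 tested axoneme genes (Cfap, Drc, Spef and others), 25 rose in BMP and 27 in BMP/FGF, beside 40.2 and 40% of all genes. Medians of the 28 were 2.93 and 2.60, and those that did not rise had no call. Among the 17 of the 28 that reached the filter's level in EGF/FGF, 14 rose in BMP and 16 in BMP/FGF, with medians of 2.51 and 2.04. Of all genes so limited, 37.8% rose in BMP and 37.7% in BMP/FGF. Spef2, a central pair protein, rose most in BMP (5.51, adjusted p = 4.36e-13) and Drc7, of the nexin-dynein regulatory complex, rose most in BMP/FGF (5.42, adjusted p = 1.3e-14). Of 20 tested genes for dynein arms, their assembly and their docking, 15 rose and 2 fell in BMP, while 14 rose and 1 fell in BMP/FGF. The shares of all genes that fell were 38.8% in BMP and 38.1% in BMP/FGF. Dnali1, an inner-arm light intermediate chain, rose from 0.897 ± 0.242 to 20.8 ± 2.03 and 17.3 ± 1.23 CPM (SD, n = 4). Dnaaf2, a cytoplasmic dynein assembly factor, fell by 1.52 and 1.67 on the log2 scale (adjusted p = 1.1e-11 and 3.56e-12).

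A list named for the multiciliation programme held rises and falls. Its genes Mcidas, Gmnc, Trp73, Deup1 and Cdc20b were not tested, with at most 5 counts in any library. Of its 8 tested genes, 2 rose and 6 fell in BMP, while 1 rose and 6 fell in BMP/FGF. Of all genes, 38.8% fell in BMP and 38.1% in BMP/FGF. The 8 include Rfx1, Rfx5 and Rfx7, which are broadly expressed Rfx factors, and the tubulin Tubb4b, none of which is particular to multiciliated cells. Ccno, a cyclin-like protein of multiciliated cells, rose from 2.46 ± 0.681 to 5.29 ± 0.457 and 5.16 ± 0.609 CPM (log2 fold change 1.10 ± 0.17, adjusted p = 1.38e-05 and 1.07 ± 0.17, adjusted p = 2.23e-05). Stil, which centriole duplication in cycling cells also needs, fell by 2.33 and 3.18 on the log2 scale (adjusted p = 3.28e-12 and 1.44e-13).

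Most tested markers of ependymal cells rose. Of 16 listed, 13 were in the table and 11 tested (Foxj1, already counted among the 59, is 1 of them), of which 9 rose in BMP, while 9 rose and 1 fell in BMP/FGF. Of all genes, 40.2% rose in BMP and 40% in BMP/FGF. Of the 7 markers that reached the filter's level in EGF/FGF, 5 rose in each state, beside 37.8 and 37.7% of all genes so limited. The summed CPM of the 13 was 341 to 362 under EGF/FGF, 546 to 639 under BMP and 418 to 440 under BMP/FGF. Cd24a, with up to 6643 counts in a library, had the highest count of the list and enters that sum. It was the 1 marker that fell in BMP/FGF (−0.74, adjusted p = 4.63e-07). Fam183b rose from 0.195 ± 0.0887 to 10.3 ± 2.25 and 6.41 ± 0.744 CPM, Tppp3 from 3.20 ± 0.679 to 29.3 ± 1.54 and 31.5 ± 1.07, whereas Ccdc153 and Pifo stayed at no more than 9 and 5 counts and Rarres2 had no call (0.13 in BMP, adjusted p = 0.277). Astrocyte markers rose too (5 of 6 tested in BMP, 6 in BMP/FGF), and neuroblast markers (Dlx genes, Dcx and others) ranged in sum from 40.6 to 45.2 CPM under EGF/FGF, 561 to 1086 under BMP and 209 to 239 under BMP/FGF. Markers of choroid plexus, whose cells also carry cilia, summed to 0.157 to 0.364 CPM under EGF/FGF, 1.11 to 1.91 under BMP and 0.696 to 1.11 under BMP/FGF. The 1 tested gene of that list, Ttr, was called higher in both states (adjusted p = 2.58e-07 and 6.29e-06) at no more than 1 count in an EGF/FGF library, 22 in a BMP library and 15 in a BMP/FGF library, while Otx2 had at most 3 counts and Kl at most 5. The part of a change in cell make-up in these results was not tested.

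Genes of the primary cilium machinery changed in both directions, with more rises and fewer falls than over all genes. Of all genes, 40.2% rose and 38.8% fell in BMP, and 40% rose and 38.1% fell in BMP/FGF. These shares apply to the IFT and BBSome counts below as well. Of the 29 genes of this machinery, all tested, 17 rose and 6 fell in BMP, with a median log2 fold change of 0.44. In BMP/FGF 19 of them rose and 6 fell, with a median of 0.61. Their summed CPM was 903 to 915 under EGF/FGF, 1179 to 1334 under BMP and 1259 to 1275 under BMP/FGF. That of the 26 motile axoneme genes, for comparison, was 90.1 to 99.3, 160.1 to 189 and 152 to 166.

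IFT-A, the retrograde complex, held rises and falls. The 3 subunits with an Ift symbol rose in both states, and of the 3 subunits under other symbols Wdr19 rose (1.88 ± 0.074, adjusted p = 1.13e-13 in BMP, 1.62 ± 0.074, adjusted p = 9.32e-13 in BMP/FGF) while Wdr35 fell (−0.62 ± 0.071, adjusted p = 2.51e-07, −0.80 ± 0.071, adjusted p = 9.56e-09) and so did Ttc21b (−0.59 ± 0.081, adjusted p = 2.65e-06, −0.61 ± 0.081, adjusted p = 2.09e-06). Ift122 (ENSMUSG00000030323, chr6:115853470-115926699, plus strand) had 34.5, 35.9, 33.9 and 33.4 CPM under EGF/FGF, 91.0, 99.6, 92.2 and 93.0 under BMP, and 88.8, 88.6, 91.3 and 89.8 under BMP/FGF. The libraries of a state lay close together, and the log2 fold changes were 1.45 ± 0.057 (adjusted p = 1.1e-13) and 1.38 ± 0.057 (adjusted p = 2.1e-13). Ift43 rose by 0.68 ± 0.090 (adjusted p = 1.64e-06) and 0.73 ± 0.090 (adjusted p = 8.31e-07), and Ift140 by 0.44 ± 0.069 (adjusted p = 1.25e-05) and 0.31 ± 0.069 (adjusted p = 0.00057).

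IFT-B, the anterograde complex, held rises and falls. Of 11 genes, 6 rose and 3 fell in BMP, while 8 rose and 1 fell in BMP/FGF. Ift172, at the edge of the IFT-B train, had 22.7, 22.3, 27.5 and 26.0 CPM in EGF/FGF, 50.6, 53.7, 49.5 and 42.1 in BMP, and 41.6, 40.4, 48.8 and 46.3 in BMP/FGF, a rise of 1.00 ± 0.090 (adjusted p = 1.07e-08) and 0.85 ± 0.090 (adjusted p = 1.09e-07) without overlap with EGF/FGF. Ift46 rose by 0.98 ± 0.066 (adjusted p = 2.02e-10) and 0.82 ± 0.066 (adjusted p = 2.8e-09), Ift80 by 0.73 ± 0.079 (adjusted p = 1.19e-07) and 0.62 ± 0.079 (adjusted p = 9.86e-07), and Ift52, a core subunit, by 0.66 ± 0.073 (adjusted p = 1.8e-07) and 0.79 ± 0.073 (adjusted p = 1.74e-08). Ift27, a small GTPase that links the train to the BBSome, went down from 31.3, 31.7, 30.8 and 29.8 CPM in EGF/FGF to 23.0, 25.4, 16.4 and 22.3 in BMP, and 25.1, 23.8, 19.3 and 23.0 in BMP/FGF. All its quiescent libraries were below the proliferating ones (−0.51 ± 0.094, adjusted p = 7.77e-05 and −0.44 ± 0.094, adjusted p = 0.000344). Ift20, which also serves at the Golgi, fell in BMP (−0.37 ± 0.089, adjusted p = 0.00109) and had −0.16 ± 0.088 (adjusted p = 0.102) in BMP/FGF. Ift74, of the IFT-B core, was the third gene to fall in BMP (−0.27 ± 0.079, adjusted p = 0.00455).

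Dync2li1, the light intermediate chain, had 45.2, 43.1, 39.5 and 40.9 CPM in EGF/FGF, 94.4, 90.6, 81.7 and 72.6 in BMP, and 91.1, 93.9, 82.5 and 84.9 in BMP/FGF, a rise of 1.00 ± 0.060 (adjusted p = 3.72e-11) and 1.06 ± 0.060 (adjusted p = 1.81e-11). Dync2h1, the heavy chain, had 45.8, 46.7, 54.1 and 57.6 CPM in EGF/FGF, 56.4, 54.8, 65.2 and 50.8 in BMP, and 34.4, 32.5, 41.9 and 42.0 in BMP/FGF. It showed no call in BMP (0.16 ± 0.078, adjusted p = 0.0682) and fell in BMP/FGF (−0.44 ± 0.080, adjusted p = 7.1e-05), where its libraries were below all others.

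Among 10 genes of the BBSome and its assembly, 6 rose in each quiescent state, 2 fell in BMP and 3 fell in BMP/FGF. Bbs1 (ENSMUSG00000006464, chr19:4886878-4906628, minus strand), a BBSome subunit that binds its membrane GTPase, had 14.8, 15.9, 16.5 and 15.3 CPM in EGF/FGF, 61.4, 61.6, 53.1 and 58.1 in BMP, and 39.9, 44.3, 45.2 and 44.6 in BMP/FGF. The states did not overlap, with rises of 1.90 ± 0.075 (adjusted p = 1.13e-13) and 1.48 ± 0.075 (adjusted p = 4.05e-12). Bbs4, a further subunit, had 5.89, 4.30, 5.69 and 6.29 CPM in EGF/FGF, 16.9, 17.9, 22.3 and 20.5 in BMP, and 23.8, 22.5, 20.6 and 19.5 in BMP/FGF (1.80 ± 0.12, adjusted p = 1.84e-10 and 1.97 ± 0.12, adjusted p = 5.72e-11). The subunits Bbs2, Bbs9 and Ttc8 rose by 1.24, 1.24 and 1.02 in BMP and by 1.24, 1.32 and 0.89 in BMP/FGF, and each was higher in every quiescent library than in any EGF/FGF library.

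Other genes of the same machinery did not rise. Bbs12, a chaperonin-like protein that helps assemble the BBSome, went from 4.75, 5.49, 7.0 and 7.17 CPM in EGF/FGF to 2.88, 3.39, 2.22 and 2.59 in BMP, and 2.58, 1.5, 2.44 and 2.06 in BMP/FGF. No other tested cilium gene fell as far in either state (−1.13 ± 0.18, adjusted p = 1.68e-05 and −1.5 ± 0.19, adjusted p = 9.74e-07), whereas its relative Bbs10 rose (0.94 ± 0.18, adjusted p = 0.000116 and 0.89 ± 0.18, adjusted p = 0.000228). Arl6, the GTPase that recruits the BBSome to membranes, fell by 0.39 and 0.23 on the log2 scale (adjusted p = 0.000618 and 0.0246). The subunit Bbs7 had −0.20 ± 0.10 (adjusted p = 0.0839) in BMP and fell in BMP/FGF (−0.31 ± 0.10, adjusted p = 0.0115), and Bbs5 had no call (0.10 ± 0.16, adjusted p = 0.554 in BMP, 0.20 ± 0.16, adjusted p = 0.241 in BMP/FGF).

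Tulp3, an adaptor that brings receptors to the ciliary membrane with IFT-A, had 122, 118, 119 and 116 CPM in EGF/FGF, 99.4, 99.9, 83.2 and 101 in BMP, and 95.1, 99.3, 105 and 105 in BMP/FGF, lower in both quiescent states (−0.31 ± 0.066, adjusted p = 3e-04 and −0.23 ± 0.066, adjusted p = 0.00354). Arl3, a GTPase that releases lipidated cargo, was higher (0.26 ± 0.078, adjusted p = 0.00512 and 0.34 ± 0.078, adjusted p = 0.000737). Arl13b, a GTPase of the ciliary membrane widely used to stain cilia, had 32.8, 30.9, 30.8 and 33.6 CPM in EGF/FGF, 31.1, 26.8, 32.7 and 26.2 in BMP, and 34.6, 36.2, 35.0 and 35.6 in BMP/FGF. It had no call against EGF/FGF in either state (−0.13 ± 0.078, adjusted p = 0.125 and 0.14 ± 0.077, adjusted p = 0.0982).

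Lists of other primary cilium genes were mixed, as were all genes. Of all genes, 40.2% were higher and 38.8% lower in BMP, with 40% and 38.1% in BMP/FGF. Of 16 further IFT and motor genes, 8 rose and 5 fell in each quiescent state. The IFT-A subunits Wdr19, Wdr35 and Ttc21b, given above, are among them, and Traf3ip1, an IFT-B subunit, fell most in BMP (−0.83, adjusted p = 3.37e-05). Of 7 further BBSome genes, 5 rose and 2 fell in BMP, while 4 rose and 1 fell in BMP/FGF. Of 24 transition zone genes, which form the gate at the cilium base, 10 rose and 7 fell in BMP, while 9 rose and 4 fell in BMP/FGF, with Tmem67 highest (1.23, adjusted p = 3.61e-10) and Cep290 lowest (−1.20, adjusted p = 3.38e-06) in BMP. Of 14 ciliary membrane cargo genes, 6 rose and 4 fell in BMP, while 5 rose and 3 fell in BMP/FGF. Tub, a relative of Tulp3, rose most, by 2.25 ± 0.16 (adjusted p = 3.09e-10) and 1.36 ± 0.16 (adjusted p = 4.83e-07).

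Genes listed for the distal appendage and for early ciliogenesis, membrane traffic genes such as Rab8a and Rab11a included, were mostly lower. Of all genes, 38.8% were lower in BMP and 38.1% in BMP/FGF. Of 14 distal appendage and ciliogenesis genes, 3 rose and 9 fell in BMP, while 2 rose and 10 fell in BMP/FGF (medians −0.56 and −0.37). Cep164, a distal appendage protein that docks the centriole, went from 39.3 ± 3.69 to 15.8 ± 2.10 and 15.1 ± 0.719 CPM (SD, n = 4), and Ehd3, a membrane-shaping protein of the early ciliary vesicle, rose from 14.6 ± 1.11 to 40.4 ± 3.09 and 40.5 ± 1.5. Of 11 genes that suppress or take down cilia, 2 rose and 7 fell in each state. Plk1, a mitotic kinase, fell most (−2.82 in BMP, adjusted p = 3.87e-14, and −3.98 in BMP/FGF, adjusted p = 1.76e-15), and Nedd9, a scaffold that activates Aurora A, rose (1.33 ± 0.064, adjusted p = 1.77e-12 and 0.87 ± 0.064, adjusted p = 6.64e-10). Plk1, Aurka and Nek2 of that list are also cell cycle genes, and all 10 proliferation markers fell in both states.

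On adding FGF2 to BMP4, 6 of the 7 tested axonemal dynein heavy chains of the set fell. The symbol rule left out Dnah7a, Dnah7b and Dnah7c, heavy chains counted with the genes for dynein arms, their assembly and their docking. Over all 9 tested dynein genes of the set, intermediate chains included, the 6 heavy chains were the falls, beside 21.5% of all genes. The median log2 difference was −1.08. Dnah9 fell by 1.54 ± 0.15 (adjusted p = 3.36e-07), Dnah11 by 1.46 ± 0.21 (adjusted p = 2.65e-05), Dnah6 by 1.46 ± 0.19 (adjusted p = 3.12e-05) and Dnah5 by 1.32 ± 0.24 (adjusted p = 3e-04) on the log2 scale. Dnah2 fell by 0.72 ± 0.18 (adjusted p = 0.00396) and Dnah1 by 0.58 ± 0.17 (adjusted p = 0.0117). In all 6 the BMP/FGF libraries were below every BMP library in both lines, a separation that 18.4% of all genes showed. The seventh heavy chain of the set, Dnah17, had −1.08 ± 0.46 (adjusted p = 0.0688) and overlapping libraries. Of the 12 other tested motile genes, Ccdc40 (−0.53 ± 0.10, adjusted p = 0.000418) and Rsph9 (−0.26 ± 0.098, adjusted p = 0.0392) were lower and Spag6 higher (0.59 ± 0.21, adjusted p = 0.0324), and 9 had no call.

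**Figure D5:**
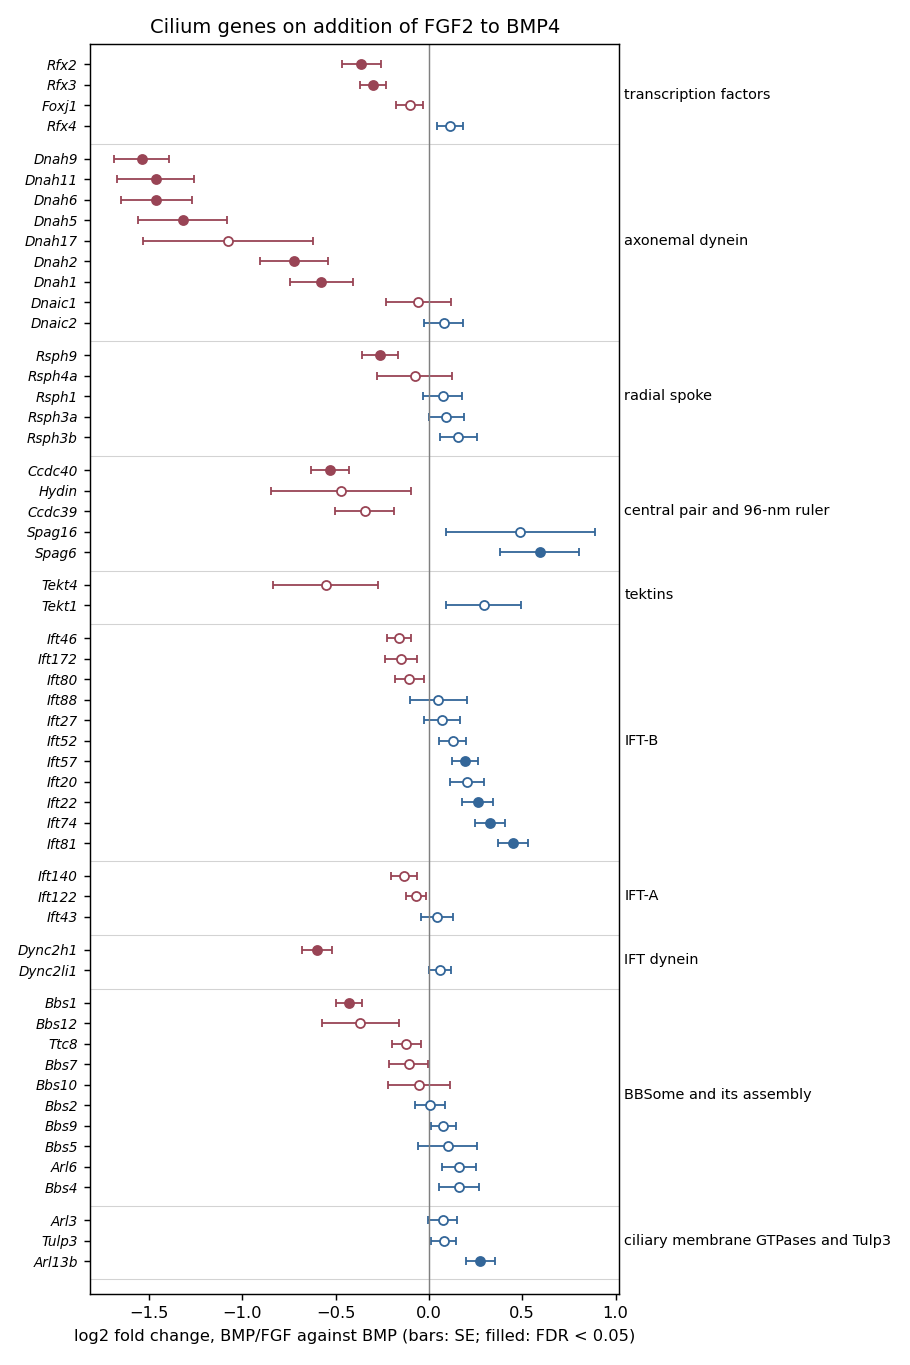
Log2 fold change of BMP/FGF against BMP (x axis) with its SE for the 54 tested cilium genes (y axis, grouped by role); filled points passed an adjusted p of 0.05, red marks values below 0 and blue values above. The heavy chains Dnah9, Dnah11, Dnah6 and Dnah5 lie farthest left, from −1.54 to −1.32, and the IFT and BBSome genes other than Dync2h1 lie within 0.5 of 0.

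In the primary machinery, 5 of 29 genes rose on adding FGF2 and 2 fell, beside 19.2% and 21.5% of all genes. The IFT-B subunits Ift81 and Ift74, partners in the core of the train, rose by 0.45 ± 0.081 (adjusted p = 0.000284) and 0.33 ± 0.079 (adjusted p = 0.00313). Ift81 had 40.3, 34.4, 39.6 and 34.0 CPM in BMP and 53.2, 52.4, 47.7 and 49.0 in BMP/FGF. Ift74 had 44.0, 37.4, 44.8 and 39.6 CPM in BMP and 53.5, 56.3, 49.0 and 49.0 in BMP/FGF, and neither gene showed overlap between the states. Arl13b (0.28 ± 0.078, adjusted p = 0.00888), Ift22 (0.26 ± 0.084, adjusted p = 0.0191) and Ift57 (0.19 ± 0.069, adjusted p = 0.0326) were higher too. The falls were Dync2h1 (−0.60 ± 0.079, adjusted p = 1.42e-05) and Bbs1 (−0.43 ± 0.069, adjusted p = 0.000104). The count of higher genes depended on single libraries: it was 3, against 6, without ANS4 BMP/FGF replicate 2 or without BL6 BMP/FGF replicate 2, and the Spag6 and Ift22 calls were lost without either. The Spag6 call was also lost without ANS4 BMP replicate 1 (0.55, adjusted p = 0.0788), ANS4 BMP replicate 2 (0.50, adjusted p = 0.103) or ANS4 BMP/FGF replicate 1 (0.54, adjusted p = 0.0862), by the DESeq2 Wald test (0.60, adjusted p = 0.0973) and with a replicate block (0.59, adjusted p = 0.0507). The Ift22 call was also lost without BL6 BMP replicate 1 (0.22, adjusted p = 0.0555). Without ANS4 BMP/FGF replicate 2 the difference was 0.54 (adjusted p = 0.0849) for Spag6 and 0.25 (adjusted p = 0.0522) for Ift22. Without BL6 BMP/FGF replicate 2 it was 0.58 (adjusted p = 0.0838) and 0.21 (adjusted p = 0.0787). Fits of 1 line lost calls too. In BL6 alone these were Spag6 (0.29, adjusted p = 0.448), Ift74 (0.22, adjusted p = 0.0684) and Arl13b (0.26, adjusted p = 0.0804). In ANS4 alone the Ift22 call was lost (0.15, adjusted p = 0.204).

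Other lists moved between the quiescent states as well. Of 28 other motile axoneme genes, 3 rose and 9 fell, among them Cfap70 (−1.13 ± 0.29, adjusted p = 0.00464, below 1 CPM on average) and Cfap126, an apical basal body protein (−0.89 ± 0.087, adjusted p = 4.5e-07), and of 20 dynein assembly and docking genes 1 rose and 6 fell. Of 11 ependymal markers 1 rose, 4 fell and 6 had no call, all 6 neuroblast markers fell, and 5 of 6 astrocyte markers rose, beside 19.2% of all genes higher and 21.5% lower. Their part in the dynein result was not tested. All 10 proliferation markers fell too.

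Calls of a different change in the 2 lines were few among cilium genes, as among all genes. Tested as an interaction, the log2 change in BMP was higher in BL6 than in ANS4 for 0 of 54 genes (4.64% of all genes; 1 of 54 at an unadjusted p under 0.05, and 0 by the DESeq2 Wald test) and lower for 4 (3.85%): Ift88, Rsph1, Ift172 and Ift80. At an unadjusted p under 0.05, 15 of 54 were lower in BL6, a share that was not counted over all genes. The median difference was −0.19 over the 54 and −0.0010 over all genes. Ift88, an IFT-B core subunit required for cilia, had 6.15, 6.16, 10.1 and 9.51 CPM in EGF/FGF, and 10.7, 10.6, 11.2 and 8.04 in BMP. Its log2 fold change was 0.79 in ANS4 and −0.027 in BL6, a difference of −0.82 ± 0.21 (adjusted p = 0.0246), with the lines apart in EGF/FGF and overlapping in BMP. Rsph1 changed by 1.36 in ANS4 and 0.79 in BL6 (difference −0.57 ± 0.17, adjusted p = 0.0455) and Ift172 by 1.21 in ANS4 and 0.77 in BL6 (−0.44 ± 0.12, adjusted p = 0.0366). Leaving out single libraries moved the count of 4 to between 0, without ANS4 EGF/FGF replicate 2 or ANS4 BMP replicate 1, and 8, without BL6 BMP replicate 1.

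For BMP/FGF against BMP, the log2 change was higher in BL6 for 3 of 54 genes (7.24% of all genes) and lower for 2 (6.22%). Dnaic1 changed by −0.47 in ANS4 and 0.40 in BL6 (difference 0.86 ± 0.27, adjusted p = 0.0418), Ift172 by −0.35 in ANS4 and 0.053 in BL6 (0.40 ± 0.12, adjusted p = 0.0327) and Rfx3 by −0.47 in ANS4 and −0.13 in BL6 (0.34 ± 0.096, adjusted p = 0.0256). Bbs4 changed by 0.41 in ANS4 and −0.094 in BL6 (−0.51 ± 0.15, adjusted p = 0.0366) and Rfx4 by 0.29 in ANS4 and −0.067 in BL6 (−0.36 ± 0.094, adjusted p = 0.0192). Leaving out single libraries moved these counts to between 0 and 4 and between 0 and 2. Over the 3 states, 0 of 54 cilium genes were higher in BL6 (1.08% of all genes) and 1, Arl3, was lower (0.792%), by −0.26 ± 0.063 (adjusted p = 0.0434). At an unadjusted p under 0.05, 1 of 54 was higher and 8 were lower. The DESeq2 Wald test called 1 higher.

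Overlapping annotation touches part of these values. In GENCODE M21, exons of 21 cilium genes overlap exons of a gene on the opposite strand, among them Dnah6, Dnah9, Dnah2, Dnah11 and Ift88, and those of Bbs12 overlap Gm43439 on the same strand. Whether the counting used strand is not given in the sources used here, and without it the reads of such partners cannot be told apart.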

How the data were processed

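The authors trimmed reads with Trim Galore 0.5.0, quantified them with kallisto 0.44.0 on mm10 (versions per the submitters' processing notes), summed transcripts to genes with Tximport, and deposited estimated counts rounded to whole numbers. A second table holds log2-scale values, deposited by the authors after DESeq2's regularized logarithm (version 1.27.32). It served as an alternative only.

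The estimated counts of 12 libraries were fitted with edgeR 4.0.16 in R 4.3.3 (filterByExpr, TMM scaling, quasi-likelihood test, two-sided, Benjamini-Hochberg over 13641 genes). State and line were terms, and differences between lines came from a fit of all 6 groups. Calls needed an adjusted p under 0.05, and folds against EGF/FGF libraries all at 0 took a floor of 3 counts per library, while those against 1 to 3 counts carry an exact binomial interval. SEs are the log2 fold change over the root of its F value. Replicates are numbered in the labels, with nothing on separate cultures or animals, so p-values measure only the spread between these samples, which may be technical.

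Members were taken by symbol, and they and the gene lists were chosen with earlier results of these data known. Named genes were the 5 largest called rises and falls of each comparison, the 3 largest line differences each way, the transcription factors and the gene with most counts in each role. Others were added to describe a role after their values were seen. Positions are GRCm38 in GENCODE M21, and promoters are RefSeq windows on GRCm38.p6 (Python 3.11.15, pandas 2.3.3, matplotlib 3.10.9). In simulated counts of 13641 genes, BMP against EGF/FGF, edgeR recovered 85 of 98 genes changed by 1 log2 unit and 100 of 102 changed by 2. For line differences in BMP/FGF against BMP it recovered fewer, 64 of 95 and 92 of 105. Only the genes counted here were changed in each simulation, up or down at random. In the data, 10776 of the 13641 genes were called in BMP against EGF/FGF, and recovery with so many changes was not tested. Alternatives used DESeq2 1.42.0 and limma 3.58.1.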

Additional observations from a re-analysis of the deposited data

Results flagged for a closer look

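The 3 cases below, in which a library stood far from the other 3 of its state by Dixon's test, are not all of them. Tulp3 in BMP, for instance, was 83.2 CPM in BL6 replicate 1 against 99.4 to 101 in the others. The test flags about 1 in 20 groups by chance, so such cases are not unusual among 54 genes in 3 states. Dnah9 was 0.0522 CPM, 1 count, in BL6 EGF/FGF replicate 1 against 0.104 CPM, 2 counts, in each of the others. Bbs7 was 11.2 CPM in ANS4 EGF/FGF replicate 2 against 13.6 to 14.1 in the others. For Ift88, ANS4 BMP/FGF replicate 2 held 12.2 CPM, where the others held 9.83 to 10.0.

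Of the cilium genes whose change differed between the lines (edgeR interaction, BL6 minus ANS4), the following were set apart. In BMP against EGF/FGF the log2 differences were −0.82 for Ift88, −0.57 for Rsph1 and −0.44 for Ift172. In BMP/FGF against BMP they were −0.51 for Bbs4, 0.34 for Rfx3, 0.40 for Ift172, 0.86 for Dnaic1 and −0.36 for Rfx4. All kept their sign under every alternative run, but each lost its call under some, Rfx4 under 3 of 19 and the BMP difference of Ift172 under 16 of 19.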

How the results depend on the processing

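Against EGF/FGF the counts of called cilium genes held: over 22 alternatives each, 33 to 40 were higher in BMP and 8 to 9 lower, and 34 to 41 were higher in BMP/FGF and 5 to 8 lower. In BMP/FGF against BMP, 8 to 14 were lower, and the 6 higher became 2 with BL6 alone and 3 to 7 on leaving out single libraries. For line differences in BMP, the 4 lower became 2 with library size only, 1 by the DESeq2 Wald test, 2 with no filter, 1 with the 8 libraries compared and 0 to 8 without single libraries, and the 0 higher became 0 to 1 without single libraries. For line differences in BMP/FGF against BMP, the 3 higher became 0 with library size only, 1 by DESeq2, 1 with the 8 libraries and 0 to 4 without single libraries. The 2 lower became 1 by DESeq2, 1 with limma on the deposited values and 0 to 2 without single libraries. Between lines, the 0 higher became 1 by DESeq2, 3 in EGF/FGF alone, 2 in BMP/FGF alone and 0 to 1 without single libraries, and the 1 lower (Arl3) became 0 with library size only, no filter, limma or the replicate block, 2 by DESeq2, in EGF/FGF alone or in BMP alone, and 0 to 1 without single libraries. The causes were not tested.

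Over 48 results for single genes, 928 of 1031 alternatives kept the direction and the call, 101 lost the call, 1 gained it and 1 reversed. The reversal was Rfx4 in BMP/FGF against BMP, −0.067 in BL6 alone, where ANS4 alone gave 0.30 with a call. The deposited log2 values, which shrink low counts, gave 2.71 for Dnah6 in BMP. Another scaling moved the median of all genes by at most 0.09 downward on the log2 scale. Equal replicate numbers did not pair the libraries (correlations of deviations −0.067 to 0.048). With a replicate block, called cilium genes went from 47 to 45, 46 to 46, 18 to 15, 4 to 3, 5 to 4 and 1 to 0 in the order above. Depth limits genes near the floor: 3 counts equalled 0.155 to 0.167 CPM.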
